A study of Saccharomyces cerevisiae with 29 samples.

Results

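Wild-type budding yeast (Saccharomyces cerevisiae) released into S phase in the presence of methyl methanesulfonate (MMS) was compared with the same strain held in G1. The comparison uses 2 MMS libraries and 4 G1 libraries, 6 of the 17 total RNA libraries among 29 samples of a series on the Mre11-Rad50-Xrs2 (MRX) complex, chosen by their labels alone. All 6 are MATa haploids with the auxotrophic alleles ade2-1, his3-11,15, leu2-3,112, trp1-1 and ura3, with can1-100, and GAL and RAD5, grown in YEP with 2% glucose. For G1, cells were held with 5 µg/ml of the mating pheromone α-factor for 170 min at 25 °C and given no further agent. For the MMS group, cells from that arrest were let into S phase in 0.033% MMS for 60 min. Cell cycle stage, removal of pheromone and the alkylating agent therefore change together and cannot be told apart, since no S phase library without MMS and no G1 library with it was analysed here. A second G1 reference, compared with the same MMS libraries, was the average of 2 rad50Δ (rad50::KAN, URA3::GPD-TK7) and 2 mre11Δ (mre11::HIS) libraries, from the same arrest and without MMS, called the MRX deletions below. The fit, and an alternative reference, also hold G1 libraries from the same arrest without MMS of ku70Δ (ku70::HIS, 1 library), mre11-H125N (mre11::mre11-H125N, 2 libraries), rrp6Δ (rrp6::TRP, URA3::GPD-TK7, 2 libraries) and xrn1Δ (xrn1::ADE2, 2 libraries). The table holds 20318 rows, of which 16559 had enough signal to be tested, 5580 of them coding genes.

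MMS adds methyl groups to the bases of DNA, and the adducts and the repair intermediates made from them slow or block replication forks. In budding yeast, stalled forks activate the kinase Mec1 and through it the kinases Rad53 and Dun1. That pathway raises the supply of deoxyribonucleotides by acting on ribonucleotide reductase, the enzyme that makes them, and removes the repressor Rfx1 (Crt1) from the promoters of its genes. MMS also methylates proteins and uses up glutathione, and yeast treated with it is known to induce the proteasome genes through the activator Rpn4 and antioxidant genes through Yap1. Release from α-factor shuts off the mating programme and starts the G1/S genes of the activators SBF and MBF, followed by the histone genes and, before mitosis, the Clb2 cluster.

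Values are read counts per row that the authors divided by 1 size factor per library, called normalised reads here. A log2 change is the MMS mean minus the G1 mean of log2(value + 1), with its standard error (SE). A row is said to have risen or fallen where its p from limma, adjusted by Benjamini and Hochberg over all 16559 rows, was under 0.05. Reads over coding rows numbered 15493490, 11070232, 22876971 and 20138000 in the G1 libraries and 8230664 and 11851185 in the MMS libraries. A level of 3 reads, called the floor here, was worth 2.44 to 6.51 normalised reads in these libraries. Counts of 0 were kept as 0 and not raised to the floor. Pairs of G1 libraries correlated at r = 0.961 to 0.989 and the MMS pair at 0.988 on the log scale over coding rows. The labels do not tie replicates to separate cultures, and every p here reflects no more than the spread among these libraries, which could be technical. In bulk RNA, fewer cells with a transcript and less of it per cell cannot be told apart.

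The labels held against the markers, with exceptions in wild-type G1 library 1, in the first mre11Δ and rad50Δ libraries, and on the α-cell list in the MRX deletions. The a-cell genes STE2 (α-factor receptor) and MFA1 (a-factor) were high in all 4 G1 libraries, the α-cell pheromone gene MF(ALPHA)1 was at 0, 0, 4.07 and 0 normalised reads there and at 0 in both MMS libraries, and histone genes were low in G1 and high in MMS. Of the 4 genes on the α-cell list 3 were tested. None was called against wild-type G1, and 2 were lower than in the MRX deletions (median -3.69). Relative to the wild-type G1 average, the mean over that list was -0.34 and -0.73 in MMS. It was 2.03 and 3.14 in rad50Δ and 1.34 and 2.39 in mre11Δ. G1 library 1 stood apart from the other 3. Its mean over the G1/S list was 1.34 log2 units above the G1 average, against -0.43, -0.37 and -0.54 in G1 libraries 2 to 4 and 1.65 and 1.89 in the MMS libraries. Its mean over the pheromone list was -1.15, against 0.51, 0.18 and 0.46, with -3.42 and -3.05 in MMS. The first mre11Δ and first rad50Δ libraries were shifted the same way, with G1/S means of 2.35 and 1.11 and pheromone means of -2.05 and -0.97. On the histone list they were at 2.38 and 0.70, beside 2.24 and 2.54 in MMS. On the checkpoint list they were at 0.78 and 0.34, beside 0.04 and -0.08 in the second mre11Δ and rad50Δ libraries. On the homologous recombination list they were at 0.75 and 0.43, beside 0.21 and 0.23. The shift of these first libraries limits the comparisons with the MRX deletions on the cell cycle, mating, reductase, checkpoint and homologous recombination lists. Because wild-type G1 library 1 stood apart, values without it are also given for a number of genes and lists. Of the 18 called rows named here in which it stood apart, 18 kept their call and direction without it.

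**Figure D1:**
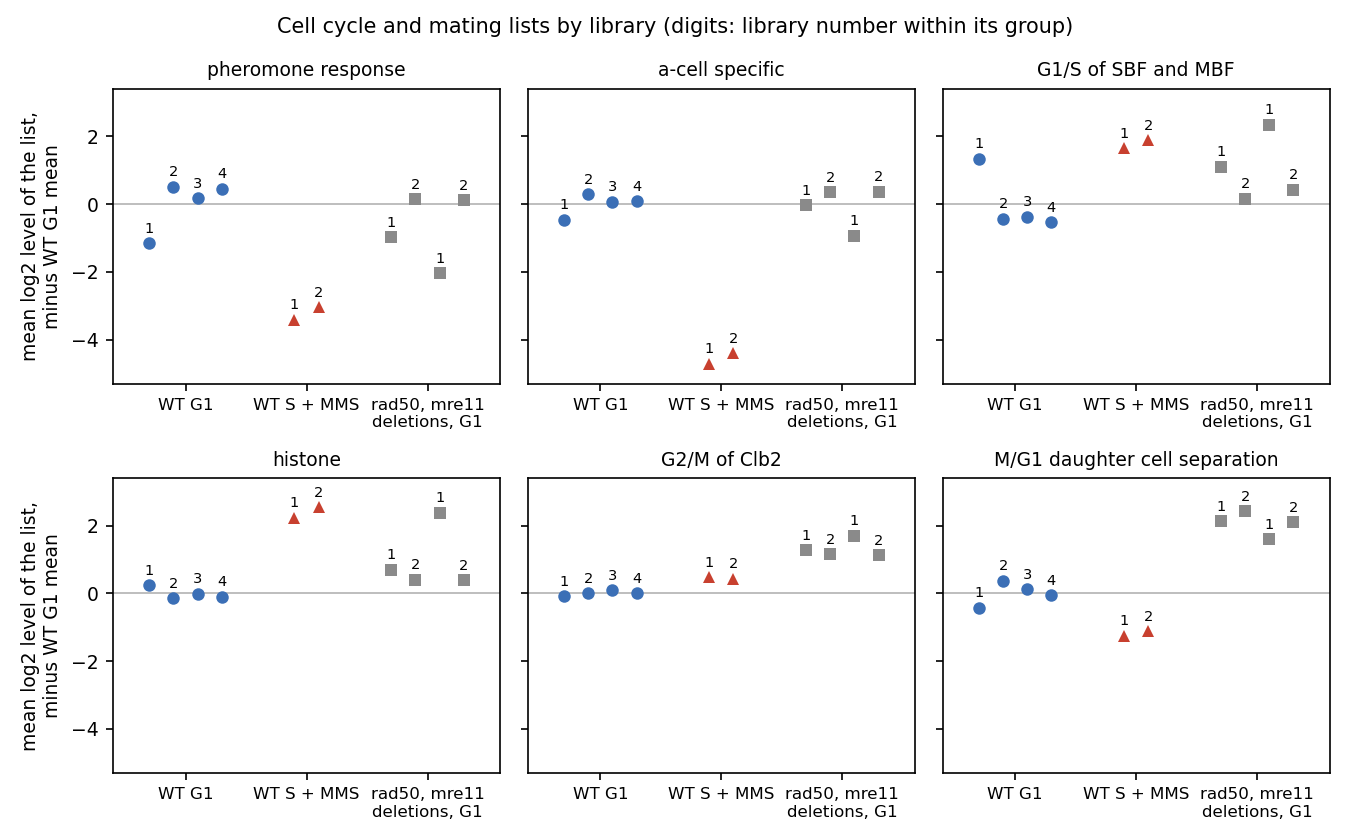
Mean log2 level of 6 gene lists in each library, minus the mean of the 4 wild-type G1 libraries, with the library number within its group beside each point (circles wild type in G1, triangles wild type in S phase with MMS, squares rad50Δ and mre11Δ in G1, rad50Δ to the left). G1 library 1 sits at 1.34 on the G1/S panel, near the MMS libraries at 1.65 and 1.89, and at -1.15 on the pheromone panel.

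Of 5580 coding genes, 1312 rose and 1310 fell, 47% in all and 23.5% in each direction. Changes of at least 1 log2 unit were seen in 412 of the genes that rose and 447 of those that fell. In 1603 genes (28.7%) both MMS libraries lay above all 4 G1 libraries, and in 1562 (28%) both lay below. Leaving out the first MMS library gave 811 higher and 814 lower genes, of which 793 and 802 were among those above, and without G1 library 1 the counts were 1423 and 1404. The counts of gene lists below are to be read against these shares of 23.5%. Counts against the MRX deletions are to be read against the 19.5% of coding genes higher and 19.9% lower in that comparison. The lists and members were chosen with results of these data known, and list counts carry no test.

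The genes of ribonucleotide reductase were higher after MMS. The enzyme is a complex of a large subunit (Rnr1, or the damage-induced Rnr3) and a small subunit (Rnr2 and Rnr4). RNR3 stood at 189, 235, 230.1 and 190.1 normalised reads in the 4 G1 libraries and at 3133 and 3818 in the MMS libraries. The groups lay far apart, a 16.5-fold ratio of means and a log2 change of 4.03 ± 0.17 (SE; adjusted p = 3.51e-09). RNR2 went from 13127, 11365, 9085 and 9407 to 38453 and 31521 and RNR4 from 8916, 9329, 7623 and 7367 to 34739.9 and 24879, log2 changes of 1.71 ± 0.14 and 1.83 ± 0.13 (adjusted p = 1.09e-06 and 3.92e-07). Every MMS value of these genes was above every G1 value.

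RNR1, which MBF also drives at G1/S, gave a less even picture. It was at 15604, 933, 769 and 782 in the G1 libraries and at 38921 and 40639 in MMS, so that on a log scale G1 library 1 was closer to the MMS libraries than to its own group. Its log2 change was 4.53 ± 1.16 (adjusted p = 0.00873), and 5.59 without G1 library 1 (adjusted p = 1.72e-04). The call was lost without the first MMS library (4.56, adjusted p = 0.0555). As levels in MMS, RNR3 reached a mean of 1332 normalised reads per kilobase and RNR1 one of 14916, so RNR1 was the more abundant of these 2 large-subunit transcripts.

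The regulators of the enzyme moved the same way as the subunits. HUG1, a small inhibitor of the reductase that is transcribed on damage, stood at 25.1, 20.5, 18.7 and 17.4 in G1 and at 567 and 333 in MMS, with no overlap. Its log2 change was 4.36 ± 0.26 (adjusted p = 7.23e-08). DUN1, the kinase that removes the inhibitors, was at 995, 645, 487 and 482 and then at 3233 and 3162, a change of 2.36 ± 0.29 (adjusted p = 6.03e-05). RFX1, the gene of the repressor named above, rose by 1.70 ± 0.20 (adjusted p = 2.53e-05). CRT10, a negative regulator of the RNR genes, rose by 0.49 ± 0.08 (adjusted p = 4.53e-04). The inhibitors DIF1 and SML1 had log2 changes of 1.45 ± 0.53 and 0.86 ± 0.23 (adjusted p = 0.0449 and 0.00883). DIF1 lost its call without G1 library 3 or 4 or without either MMS library (adjusted p = 0.0835, 0.0933, 0.125 and 0.191), and SML1 lost it without the first MMS library (0.154). In all, 10 of 10 listed genes rose (23.5% of all coding genes rose), with a median log2 change of 1.77 against 0.00 over all coding genes, and 7 rose without the first MMS library. Against the MRX deletions, 7 of 10 were higher (19.5% of coding genes were), among them RNR3 at 2.22 ± 0.17 (adjusted p = 5.92e-07). In those deletions HUG1 was at 79.2, 80.1, 68.0 and 71.5, above every wild-type G1 value and below both MMS values.

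**Figure D2:**
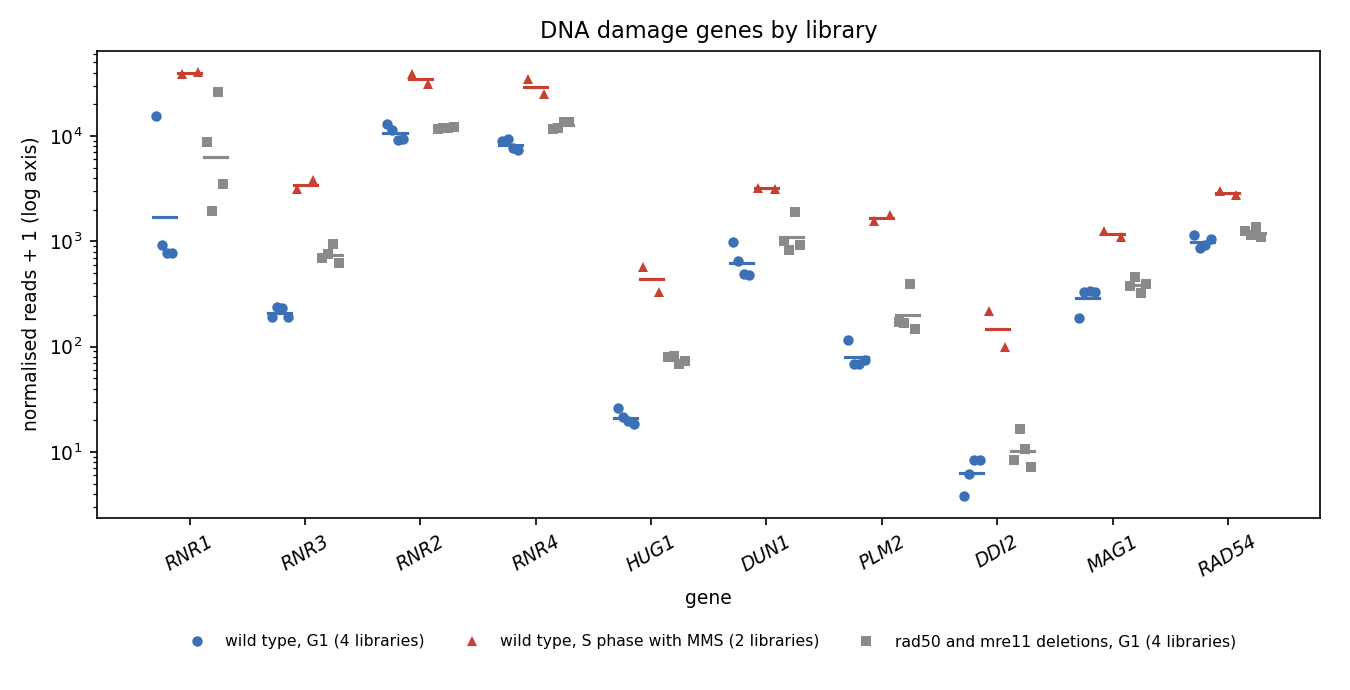
Normalised reads plus 1 (log axis) of 10 DNA damage genes in each of the 4 wild-type G1 libraries, the 2 MMS libraries and the 4 rad50Δ or mre11Δ libraries in G1, with the geometric mean of each group as a bar. The MMS points lie above all wild-type G1 points for each gene; for RNR1 the highest G1 point, library 1, is 15604.

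Other genes known to respond to DNA damage included some of the 15 largest rises among coding genes whose groups lay apart. DDI2 and DDI3 are near-identical copies that encode a cyanamide hydratase and are known to be induced by MMS, and reads may be split between them. DDI2 stood at 2.79, 5.12, 7.32 and 7.31 in G1, near the floor, and at 215 and 97.8 in MMS, and DDI3 stood at 12.5, 11.9, 12.2 and 7.31 and then at 302 and 129. Both copies were low in all G1 libraries and higher in the first MMS library than in the second, with log2 changes of 4.53 ± 0.44 and 4.07 ± 0.41 (adjusted p = 5.91e-06 and 8.89e-06). PLM2, a forkhead-associated transcription factor and MBF target, was at 114, 68.2, 67.5 and 73.1 and then at 1550.2 and 1778, a log2 change of 4.38 ± 0.32 (adjusted p = 4.13e-07). MAG1, the glycosylase that removes 3-methyladenine from DNA and so acts on the main toxic lesion of MMS, was at 185, 326, 336 and 329.9 and then at 1259 and 1091. The groups did not overlap, and the log2 change was 2.03 ± 0.22 (adjusted p = 1.26e-05).

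Within the damage-inducible list, which shares 5 genes with the reductase list, 17 of 20 genes rose, with a median of 1.79. DDI1, a ubiquitin-dependent protease whose gene shares its control region with MAG1, rose by 2.09 ± 0.15 (adjusted p = 3.26e-07), and DIN7, a mitochondrial nuclease, by 1.76 ± 0.23 (adjusted p = 7.52e-05). TOS4, a paralogue of PLM2, was at 701, 75.0, 65.9 and 64.9 and then at 1541 and 2267. G1 library 1 stood apart for it, and its log2 change of 3.92 ± 0.98 (adjusted p = 0.00796) became 4.75 without that library (adjusted p = 2.85e-04) and lost its call without the second MMS library (adjusted p = 0.0555). The 3 genes not called were DDR48 at 0.74 ± 0.32, RAD2 at 0.40 ± 0.26 and the photolyase gene PHR1 at 0.32 ± 0.22 (adjusted p = 0.0813, 0.236 and 0.265). PHR1 stood at 458, 783, 760.4 and 647 in G1 and at 962 and 680.1 in MMS, so that the groups overlapped. Compared with the MRX deletions 16 of 20 were higher, with a median of 1.42.

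Checkpoint and repair genes changed less than these. Of 17 checkpoint genes 7 rose (41.2%) and the other 10 were not called, with a median of 0.40. The mean over the list, relative to the G1 average, was 0.44 in G1 library 1, near the MMS libraries at 0.59 and 0.69. In G1 libraries 2 to 4 it was -0.19, -0.17 and -0.08. Without G1 library 1, 8 of these genes rose, with a median of 0.45. Without the first or the second MMS library 3 or 4 of them rose, and without the second the median was 0.23. Of these genes 3 were higher and 2 lower than in the MRX deletions, where 19.5% of all coding genes were higher and 19.9% lower. RAD53, the central checkpoint kinase, stood at 960.0, 326, 294 and 303 in G1 and at 1667 and 1493 in MMS, with library 1 the highest of its group. Its log2 change was 1.95 ± 0.47 (adjusted p = 0.00604), and 2.36 without G1 library 1. The call was lost without the first MMS library (adjusted p = 0.0539). RAD17, a subunit of the 9-1-1 clamp that marks damaged DNA, rose by 1.11 ± 0.18 (adjusted p = 3.19e-04) and LCD1, the partner of Mec1 also called Ddc2, by 0.59 ± 0.15 (adjusted p = 0.00562). The sensor kinase genes MEC1 and TEL1 were at -0.26 ± 0.12 and -0.11 ± 0.12, and the adaptor RAD9 at 0.05 ± 0.21 (adjusted p = 0.0887, 0.479 and 0.866).

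Among 29 genes of alkylation, excision and post-replication repair 8 rose and 2 fell, 27.6% and 6.9%, against 23.5% of all coding genes in each direction. Without the first MMS library 3 rose, and 1 fell without G1 library 2 or 4 or either MMS library. Beside MAG1, UBC13 had the smallest adjusted p of those that rose. It encodes the ubiquitin-conjugating enzyme that extends chains on the replication clamp, and it stood at 673, 604, 562 and 515 and then at 1559 and 1676, a log2 change of 1.46 ± 0.11 (adjusted p = 7.35e-07). MGT1, which reverses O6-methylguanine, was at 349.7, 399, 312 and 364 and then at 308 and 357, with overlapping groups and a change of -0.10 ± 0.13 (adjusted p = 0.589). The abasic-site endonuclease gene APN1 and the polymerase gene REV1 were not called either (0.13 ± 0.11 and -0.00 ± 0.16, adjusted p = 0.381 and 0.989). TPA1, a dioxygenase reported to act on methylated DNA, fell by 0.92 (adjusted p = 3.08e-04).

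Homologous recombination genes rose more often, 14 of 26 (53.8%), with 1 that fell and a median of 0.63. Without G1 library 1, whose mean over this list stood apart from the other 3, 19 rose and the median was 0.79. The fall, of SLX1 (-0.33 ± 0.12, adjusted p = 0.0360), was lost without G1 library 1, 3 or 4 or the first MMS library (adjusted p = 0.0537 to 0.381). RAD54, a translocase of homologous recombination, stood at 1143, 868, 927 and 1055 in G1 and at 2994 and 2743 in MMS, a change of 1.53 ± 0.12 (adjusted p = 9.99e-07). The annealing gene RAD52 rose by 0.65 ± 0.10 (adjusted p = 3.09e-04). SRS2, a helicase that limits recombination, rose by 2.40 ± 0.27 and SGS1, the RecQ helicase, by 1.35 ± 0.12 (adjusted p = 2.55e-05 and 3.18e-06). The 3 subunits of the single-strand binding protein RPA, which are also G1/S genes, rose by 2.40 ± 0.33 (RFA1), 2.86 ± 0.37 (RFA2) and 2.38 ± 0.31 (RFA3), with adjusted p of 1.33e-04, 1.02e-04 and 6.63e-05. Of the 8 MRX and end-joining genes 1 rose and 1 fell. XRS2 rose by 0.46 ± 0.12 (adjusted p = 0.0100; 0.124 without the first MMS library), and NEJ1, an end-joining factor, fell by 0.42 (adjusted p = 0.0181; 0.127 and 0.0508 without the first or the second MMS library). MRE11 was at 667, 713, 635 and 623 and then at 712 and 728 (0.13 ± 0.11, adjusted p = 0.366), RAD50 was at 0.80 ± 0.34 (adjusted p = 0.0809), and YKU70 was at 0.00 ± 0.17 (adjusted p = 0.997).

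**Figure D3:**
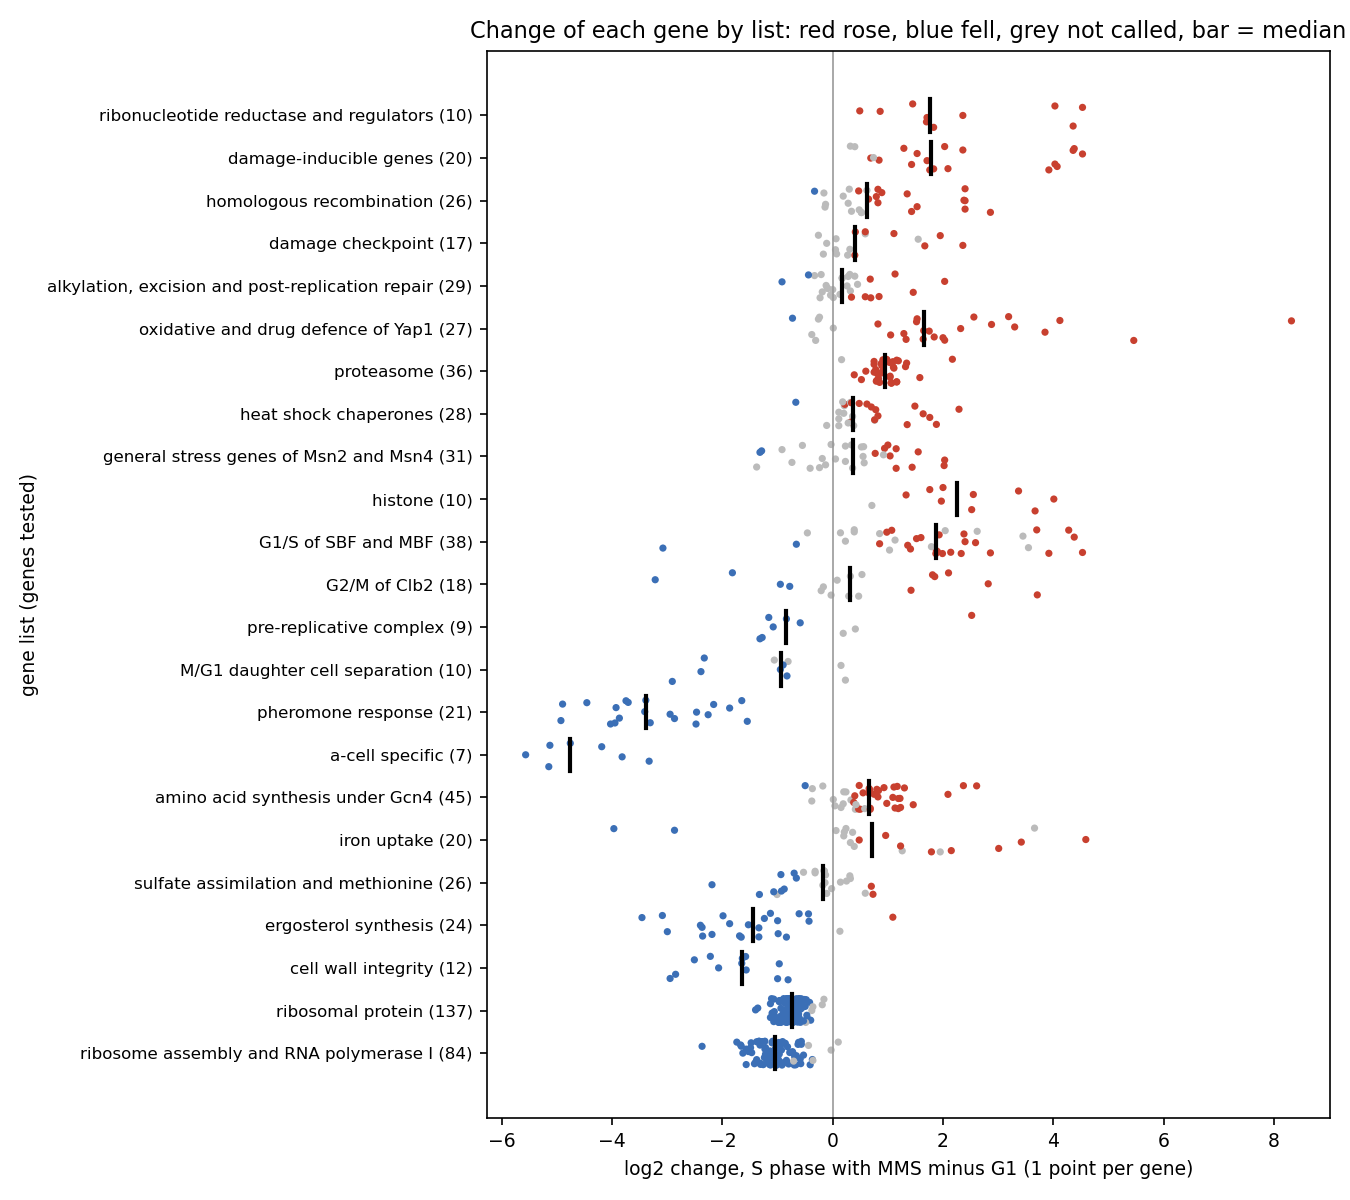
Log2 change of each tested gene, S phase with MMS minus G1, in 23 gene lists (number of genes tested in brackets), with red points for genes that rose, blue for genes that fell, grey for genes not called and a black bar at the median of the list. Medians range from 2.26 for histone genes, 1.88 for G1/S genes and 1.79 for damage-inducible genes to -3.39 for pheromone-response and -4.76 for a-cell genes.

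The oxidative and drug defence genes of the activator Yap1 included the largest fitted rise among coding genes, that of SRX1. SRX1, which restores oxidised peroxiredoxin, was listed at 1.39, 0, 1.63 and 3.66 normalised reads in G1, near the floor, and at 1031 and 534 in MMS. Its fitted log2 change of 8.32 depends on the value of 1 added before taking logs. GPX2, a glutathione peroxidase, stood at 237, 228, 248 and 234 and then at 10317 and 10564. Both groups were tight and did not overlap, a 44.1-fold ratio of means and a log2 change of 5.46 ± 0.10 (adjusted p = 7.45e-13). The multidrug exporter FLR1 was at 471, 493, 577 and 598 and then at 11924 and 7239, a change of 4.12 ± 0.18 (adjusted p = 6.16e-09). Among its relatives, ATR1 rose by 3.30 ± 0.20 (adjusted p = 6.61e-08) and ATR2, at 15.3, 1.71, 3.25 and 0.914 in G1 and 382 and 384 in MMS, by 6.46 ± 0.89 (adjusted p = 1.00e-04).

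Further genes of the Yap1 list belong to the thioredoxin and glutathione systems, and those given here were picked with their values known. TRX2, the thioredoxin under Yap1, stood at 2266, 2539, 2023 and 2182 in G1 and at 18849.6 and 14422 in MMS (2.88 ± 0.14, adjusted p = 2.14e-08), and its reductase TRR1 was at 2.56 ± 0.19 (adjusted p = 3.96e-07). GSH1, the rate-limiting enzyme of glutathione synthesis, rose by 1.75 ± 0.13, the glutathione reductase GLR1 by 1.29 ± 0.10 and the transferase GTT2 by 3.19 ± 0.24 (adjusted p = 5.20e-07, 8.24e-07 and 5.19e-07). YAP1 itself went from 1976, 2349.7, 2138 and 2575 to 9386 and 8931, 2.03 ± 0.11 (adjusted p = 3.93e-08). In all 21 of 27 genes rose, with a median of 1.65, and 1 fell, or 2 without G1 library 1. The fall was that of PDR5, a multidrug transporter mainly under other regulators, at 39476, 50798, 42236 and 45764 and then at 31136 and 23055 (-0.73 ± 0.14, adjusted p = 0.00130). Relative to those deletions 20 of 27 were higher and 5 lower, with a median of 1.41.

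Outside the lists, several of the 15 largest rises were also tight within groups. YNR068C and BSC5, which lie next to each other on the same strand of chromosome 14, went from 118, 119, 111 and 106 to 3287 and 2577 and from 252, 228, 212 and 214 to 5942 and 4445 (4.67 ± 0.14 and 4.50 ± 0.14, both adjusted p = 1.58e-10). SSU1, the plasma membrane sulfite pump, was at 202, 150.1, 214 and 98.7 and then at 3804 and 3128, 4.43 ± 0.25 (adjusted p = 4.80e-08). Other large rises came from genes whose G1 libraries differed widely. HPF1, a cell wall mannoprotein, was at 2.79, 18.8, 96.8 and 53.9 in G1 and at 1828 and 465 in MMS (5.20 ± 1.08, adjusted p = 0.00266), and CSS1 was at 6.97, 5.12, 70.8 and 78.6 and then at 784 and 402 (4.61 ± 1.01, adjusted p = 0.00369). For both of them G1 libraries 3 and 4 were higher than libraries 1 and 2. YHP1, a homeobox repressor that acts at the M/G1 boundary, was at 76.6, 5.12, 13.0 and 6.40 and then at 449 and 568 (5.09 ± 1.01, adjusted p = 0.00189), and LSO1, a small protein linked to iron shortage, was at 0, 0, 0.813 and 4.57 and then at 54.3 and 59.5 (5.02 ± 0.67, adjusted p = 7.99e-05).

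Proteasome genes rose as a block. Of 36 genes for proteasome subunits, assembly factors and Rpn4, 35 rose, with a median of 0.94, and all 36 were higher than in the MRX deletions (median 0.85). PRE1, a subunit of the core particle, stood at 2729.6, 3354, 2632 and 3044 in G1 and at 7888 and 6737 in MMS, and RPT2, an ATPase of the base, at 1421, 2201, 1304 and 1514 and then at 5855 and 3818. Both MMS values were above the G1 range for each, with log2 changes of 1.32 ± 0.12 and 1.58 ± 0.21 (adjusted p = 2.41e-06 and 7.13e-05). The member with the largest change was ECM29, a protein that holds core and cap together, from 3418, 4590.4, 3677 and 4236 to 21418 and 14845 (2.17 ± 0.15, adjusted p = 2.29e-07). UMP1, the assembly chaperone, rose by 1.34 ± 0.17 (adjusted p = 4.59e-05) and RPN4, the activator of the group, by 0.87 ± 0.11 (adjusted p = 6.63e-05). SEM1, a small lid subunit, was not called, at 1170.4, 1206, 1373 and 1621 and then at 1298 and 1716 (0.16 ± 0.14, adjusted p = 0.383). Apart from ECM29, the rises ran from 0.39 (RPN13, whose call was lost without the first MMS library at adjusted p = 0.0919) to 1.58 (RPT2).

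Chaperone genes split by member. Of 28 genes 15 rose and 1 fell, with a median of 0.37. HSP78, the mitochondrial disaggregase, stood at 2121, 2931, 2883 and 2573 and then at 13246 and 12337 (2.29 ± 0.13, adjusted p = 5.49e-08). HSP82, the inducible Hsp90, was at 7259, 11829, 9234 and 10446 and then at 36114 and 28808 (1.76 ± 0.17, adjusted p = 6.07e-06), and HSP104, the cytosolic disaggregase, rose by 1.49 ± 0.25 (adjusted p = 4.94e-04). Reads of near-identical family members can be split in counting, so that SSA1 (1.64 ± 0.16, adjusted p = 6.11e-06) and SSA2 (0.20 ± 0.12, adjusted p = 0.210) are uncertain as single genes. The small chaperone HSP26, which responds to general stress, stayed within the G1 range (189, 283, 209 and 215 in G1, 271 and 211 in MMS; 0.11 ± 0.17, adjusted p = 0.620). The ribosome-associated chaperone SSB1 fell by 0.67 (adjusted p = 0.00121).

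**Figure D4:**
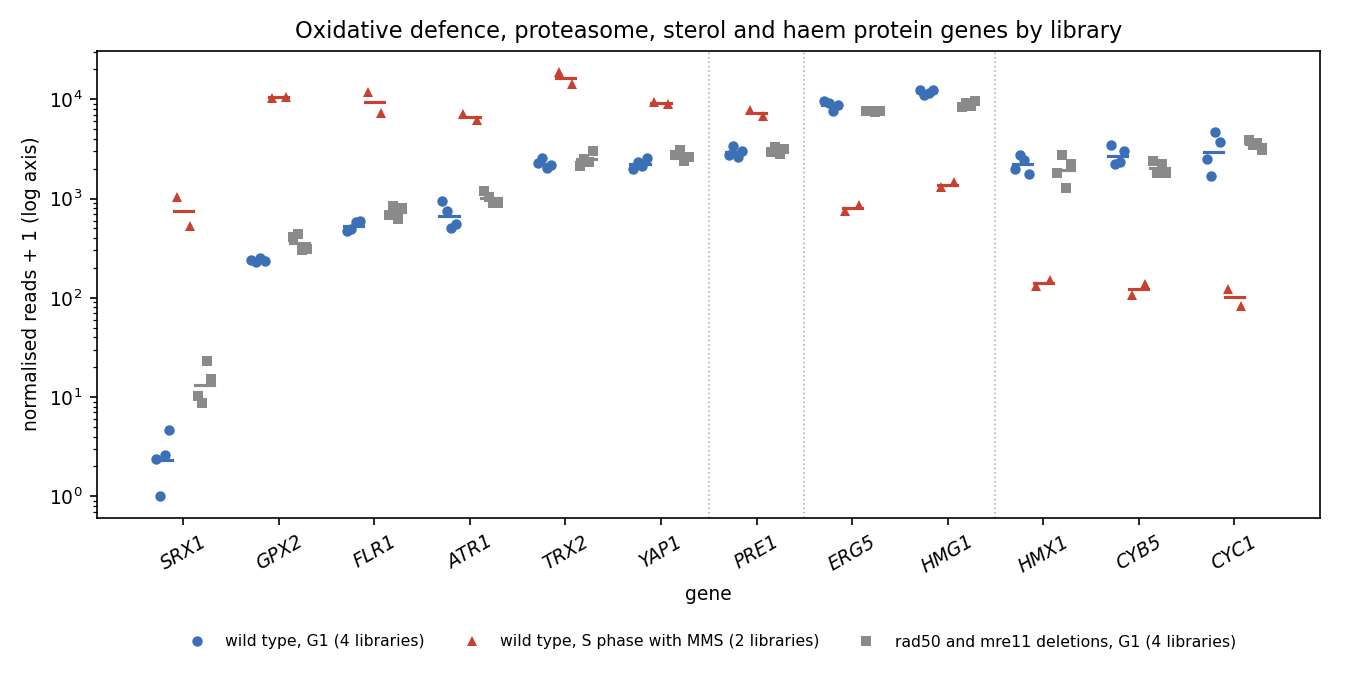
Normalised reads plus 1 (log axis) of 6 oxidative and drug defence genes, the proteasome gene PRE1, 2 sterol synthesis genes and 3 genes of haem breakdown or cytochromes, by library, with the geometric mean of each group as a bar and dotted lines between gene groups. SRX1 is at 0 to 3.66 normalised reads in wild-type G1 and at 534 or more in MMS; CYC1 falls from 1697 or more to 122 or less.

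The general stress genes of the activators Msn2 and Msn4 did not show such a block. Of 31 genes 10 rose (32.3%) and 2 fell, with a median of 0.36. Single libraries set that median: it was 0.02 without G1 library 1, 0.60 without G1 library 3, and 0.00 and 0.72 without the first and the second MMS library. The mean over the list, relative to the G1 average, was -0.92, 0.23, 0.56 and 0.13 in the G1 libraries and 0.58 and 0.08 in the MMS libraries, so the second MMS library lay within the G1 range. The higher count was 6 without G1 library 4 and 3 without the first MMS library, and the lower count was 5 without G1 library 1, 1 without the first MMS library and 0 without the second. GRE2, a reductase also reported as a stress-induced gene of other pathways, rose by 2.03 ± 0.43 (adjusted p = 0.00274), and TSL1, a trehalose synthase subunit, was at 325, 740.1, 799 and 612 in G1 and at 3202 and 1771 in MMS (2.02 ± 0.32, adjusted p = 3.91e-04; 0.40 and 0.261 against the average of all 7 G1 groups). The small membrane chaperone HSP12 stood at 550.4, 861, 1004 and 1660.5 and then at 417 and 341, below all G1 values (-1.32 ± 0.42, adjusted p = 0.0253; 0.0846 and 0.135 without the first or the second MMS library), and catalase T (CTT1) was at 100.3, 259, 457 and 443 and then at 195 and 132, within the G1 range (-0.74 ± 0.48, adjusted p = 0.240). Against the MRX deletions the same list pointed down: 1 gene was higher and 17 were lower, with a median of -0.98. HSP12 was at 11913, 13802, 6880.0 and 9699.8 in the rad50Δ and mre11Δ libraries, a log2 difference of -4.76 ± 0.42 (adjusted p = 6.91e-06).

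Transcripts of the mating programme were much lower in the MMS libraries. All 21 pheromone-response genes and all 7 a-cell genes fell, with medians of -3.39 and -4.76 (23.5% of all coding genes fell). FUS1, which is needed for cell fusion, stood at 2039.9, 8222, 6899.5 and 8383 in G1 and at 195 and 329 in MMS. G1 library 1 had the lowest value of its group but was still above both MMS libraries, and the log2 change was -4.46 ± 0.70 (adjusted p = 4.32e-04), or -4.94 without that library. FAR1, the inhibitor of G1 cyclins that holds the arrest, went from 5782, 12197, 8577 and 12096 to 586 and 611 (-3.95 ± 0.46, adjusted p = 5.36e-05). The a-cell genes were lower than in G1 by similar or larger steps. MFA1 was at 7662, 7556, 4219 and 4643 and then at 99.9 and 147, a 48.7-fold lower mean (-5.57 ± 0.30, adjusted p = 5.68e-08), and STE2 was at 26090.5, 31969, 26444 and 30649 and then at 1505 and 1644 (-4.19 ± 0.22, adjusted p = 3.05e-08). BAR1, the protease that degrades α-factor, fell from 15416, 31479, 28654 and 30984 to 619 and 864 (-5.13 ± 0.44, adjusted p = 5.27e-06). KAR3 and CIK1, which are also used in mitosis, lost their calls without G1 library 2, 3 or 4 or either MMS library (adjusted p = 0.0739 to 0.241 and 0.0607 to 0.147).

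The G1/S genes of SBF and MBF were higher, with wide errors. Of 38 genes 23 rose and 2 fell, with a median of 1.88, and without G1 library 1 the median was 2.39 and 33 rose. Without the first or the second MMS library 12 or 9 rose, and 1 fell without the first. Compared with the MRX deletions 7 were higher, a share close to that of all coding genes (19.5%), and 3 lower, with a median of 0.75. NRM1, the MBF co-repressor that closes the G1/S window, stood at 47.4, 25.6, 35.8 and 21.9 in G1 and at 406 and 432 in MMS, with no overlap (3.70 ± 0.58, adjusted p = 3.11e-04). The cohesin gene MCD1 was at 1063, 68.2, 106 and 79.5 and then at 2959 and 3219 (4.28 ± 1.14, adjusted p = 0.0110), and 5.20 without G1 library 1 (adjusted p = 8.34e-04). The call was lost without the first or the second MMS library (adjusted p = 0.0630 and 0.0567). Thymidylate synthase, CDC21, was at 691, 181, 194 and 164 and then at 1368 and 1680.4 (2.59 ± 0.61, adjusted p = 0.00569), and 3.08 without G1 library 1 (adjusted p = 3.37e-04).

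Cyclin genes of the same programme were mixed. CLN2 stood at 1423, 324, 366 and 327 in G1 and at 271 and 458 in MMS, so that the first MMS library lay below the G1 range and the second within it (-0.46 ± 0.70, adjusted p = 0.630). PCL1 was at 1259.6, 20.5, 13.0 and 11.0 and then at 376 and 674, and CLB6 at 358, 6.82, 7.32 and 0 and then at 109 and 191. For both, G1 library 1 was above the MMS libraries and the other 3 were far below them, so the groups overlapped. Their changes were 3.45 ± 1.70 and 3.55 ± 1.88 (adjusted p = 0.128 and 0.154), and 5.04 and 5.17 without library 1 (adjusted p = 0.00259 and 0.00790). PCL2, an SBF target that pheromone also induces, fell from 588, 2542, 2458 and 2897 to 180.2 and 251 (-3.08 ± 0.69, adjusted p = 0.00405).

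Histone genes, which are transcribed in S phase, rose in 9 of 10 cases with a median of 2.26. HTA2 stood at 704, 343, 337 and 406 and then at 5751 and 8255 (4.01 ± 0.59, adjusted p = 2.77e-04) and the linker histone gene HHO1 at 340.0, 334, 354 and 326 and then at 1683 and 2356 (2.55 ± 0.30, adjusted p = 3.69e-05). The second MMS library was the higher of the pair for each. The core histone genes are pairs of near-identical coding sequence, so their single values are uncertain. HTA1 was not called (0.71 ± 0.40, adjusted p = 0.179).

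Of the G2/M genes of the Clb2 cluster 6 of 18 rose and 4 fell. The mitotic cyclin CLB2 went from 188, 114, 125 and 149 to 1057 and 962 (2.82 ± 0.24, adjusted p = 1.65e-06) and CLB1 from 29.3, 47.7, 42.3 and 27.4 to 404 and 565 (3.71 ± 0.29, adjusted p = 7.91e-07). Both were well above the G1 range. The polo kinase gene CDC5 was only just above it, at 266, 333, 402 and 408 and then at 560.1 and 449 (0.53 ± 0.22, adjusted p = 0.0704), and the anaphase activator CDC20 fell by 0.78 (adjusted p = 1.48e-04). DBF2, a kinase of mitotic exit, fell from 1605, 1608, 1862 and 1470.4 to 512 and 415 (-1.82 ± 0.15, adjusted p = 1.63e-06), and SPO12, another mitotic exit gene, from 365, 585, 496 and 545 to 41.3 and 65.2 (-3.22 ± 0.22, adjusted p = 2.57e-07). In the comparison with the MRX deletions none of the 18 was higher and 10 were lower, and CLB2 differed from them by 0.58 ± 0.24 (adjusted p = 0.0750).

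Several genes of the M/G1 boundary and of origin licensing were lower. Among 10 daughter cell separation genes 6 fell, with a median of -0.93. The chitinase gene CTS1 was at 1000.4, 2178, 1081 and 907 and then at 241 and 239 (-2.33 ± 0.34, adjusted p = 2.53e-04). EGT2 and DSE4 were near their G1 levels (0.23 ± 0.16 and 0.15 ± 0.17, adjusted p = 0.276 and 0.483) and far below the MRX deletions (-4.11 and -3.64, adjusted p = 3.07e-09 and 7.79e-09). Of the 6 MCM helicase genes MCM2, MCM3, MCM4, MCM5 and MCM7 fell, from -0.59 (MCM4) to -1.32 (MCM7), and MCM6 was not called (0.19 ± 0.25, adjusted p = 0.572). MCM4 lost its call without the first or the second MMS library (adjusted p = 0.0525 and 0.135), and MCM7 without the second (0.0822). CDC6, the loader of the helicase, was at 708, 58.0, 43.9 and 57.6 and then at 706 and 487. G1 library 1 overlapped the MMS libraries there. Its call (2.52 ± 0.91, adjusted p = 0.0436), the only rise in the list, became 3.45 without G1 library 1 (adjusted p = 2.89e-05) and was lost without G1 library 2, 3 or 4 or either MMS library (adjusted p = 0.0861 to 0.205).

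Most transcripts of ribosome production were lower. Of 137 ribosomal protein genes 130 fell, with a median of -0.73, and of 84 ribosome assembly and RNA polymerase I genes 79 fell, with a median of -1.05. RPL14B stood at 13424, 9037, 9506 and 10392 and then at 3936 and 3969 (-1.40 ± 0.14, adjusted p = 8.79e-06), and NSR1, a nucleolin-like protein of rRNA processing, at 23215, 14803, 14616 and 15294 and then at 4368 and 5683 (-1.74 ± 0.17, adjusted p = 7.83e-06). Many ribosomal protein genes are duplicated, so that single values of a pair are uncertain. Against the MRX deletions 23 of the 137 ribosomal protein genes were lower and 1 was higher, with a median of -0.22. That share was below the 19.9% of all coding genes that were lower there. Of the 84 assembly and RNA polymerase I genes 37 were lower, a share above 19.9%, and 0 were higher, with a median of -0.43.

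Ergosterol synthesis fell through most of the pathway. Of 24 genes 22 fell, with a median of -1.44. HMG1, the reductase that commits carbon to the pathway, stood at 12352, 11102, 11498 and 12269 in G1 and at 1294 and 1471 in MMS (-3.09 ± 0.10, adjusted p = 1.68e-10). ERG11, the lanosterol demethylase, was at 37235, 28923, 22779 and 26160.1 and then at 3294 and 3813 (-3.00 ± 0.16, adjusted p = 3.93e-08) and ERG5, a desaturase and like Erg11 a cytochrome P450, at 9624, 9104, 7680.2 and 8842 and then at 749 and 854 (-3.46 ± 0.11, adjusted p = 1.58e-10). All G1 values were far above both MMS values. The exceptions were ERG4, the last enzyme of the pathway, which rose from 5787, 3922, 3116 and 2990.1 to 8608 and 7706 (1.09 ± 0.23, adjusted p = 0.00211), and HMG2, which was not called (0.13 ± 0.12, adjusted p = 0.375). In the comparison with the MRX deletions, too, 22 of 24 were lower.

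Other genes of haem proteins were among the 15 largest falls. CYC1, iso-1-cytochrome c, stood at 2475, 1697, 4632 and 3686 and then at 122 and 82.2 (-4.85 ± 0.31, adjusted p = 3.03e-07). CYB5, the cytochrome b5 that passes electrons to sterol and lipid enzymes, was at 3495, 2208, 2322 and 3019 and then at 106 and 137 (-4.48 ± 0.19, adjusted p = 5.99e-09). HMX1, the haem oxygenase that frees iron from haem, fell from 1969, 2745, 2448 and 1780.2 to 130.3 and 150.2 (-3.97 ± 0.22, adjusted p = 5.49e-08). It is part of the iron regulon, and other members rose. FIT2, a cell wall mannoprotein that holds siderophores, was at 248, 119, 57.7 and 35.6 and then at 2727 and 1713 (4.59 ± 0.56, adjusted p = 6.09e-05), FIT3 rose by 3.01 ± 0.32 and the mitochondrial iron carrier MRS4 by 2.15 ± 0.22 (adjusted p = 1.22e-05 and 8.79e-06). For the high-affinity uptake pair FET3 and FTR1 the groups overlapped (0.32 ± 0.50 and 0.06 ± 0.55, adjusted p = 0.644 and 0.937). Of 20 iron genes 8 rose (5 without either MMS library) and 2 fell. The G1 libraries differed among themselves in this list, with means of 0.87, 0.44, -0.39 and -0.92 in libraries 1 to 4 beside 0.99 and 0.96 in MMS.

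Amino acid genes under the activator Gcn4 rose in 30 of 45 cases and fell in 1 (in none without the second MMS library), with a median of 0.66. LYS20, homocitrate synthase, stood at 8511, 5015, 2885 and 2641 and then at 28863 and 23209.9 (2.61 ± 0.37, adjusted p = 1.76e-04), and ARG1, argininosuccinate synthetase, at 23745, 15246, 8446 and 10364 and then at 78546 and 60383 (2.37 ± 0.31, adjusted p = 1.00e-04). In each, G1 library 1 was the highest of its group and below both MMS libraries. GCN4 mRNA, which is known to be regulated mainly in translation, was not called (0.33 ± 0.14, adjusted p = 0.0744). In the sulfate and methionine list 2 of 26 rose and 8 fell (1 and 5 without the first MMS library), led by SAM2, an S-adenosylmethionine synthetase, from 17606, 14266, 9561 and 10036 to 2664 and 2801 (-2.19 ± 0.20, adjusted p = 3.26e-06).

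Cell wall integrity genes all fell, 12 of 12, with a median of -1.64. They include genes that α-factor is known to induce through the Slt2 pathway. HSP150, a secreted wall glycoprotein, stood at 5502, 4502, 7403 and 3174 and then at 658 and 706 (-2.85 ± 0.27, adjusted p = 8.33e-06), the chitin synthase gene CHS3 at 15395, 18725, 16886 and 14180.3 and then at 3608 and 4154 (-2.07 ± 0.16, adjusted p = 9.38e-07), and the kinase gene SLT2 fell by 1.57 (adjusted p = 8.04e-04). Glycolytic and mitochondrially encoded genes gave few or no calls: 1 of 17 glycolytic genes rose and 2 fell (none rose and 1 fell without the first MMS library, and none fell without the second). Of 7 mitochondrially encoded genes limma called 0, and none passed an unadjusted p of 0.05 or was called by edgeR or DESeq2. The lowest adjusted p among them was that of OLI1 (0.171). That list leaves out ribosomal RNA. The row of the mitochondrial 15S_rRNA was at 82661, 75772, 48772 and 28889 and then at 129283 and 90435 (0.99 ± 0.37, adjusted p = 0.0492), in libraries depleted of rRNA, and lost its call without G1 library 3 or 4 or either MMS library (adjusted p = 0.0705 to 0.305). In the phosphate list 2 of 16 rose and 3 fell, and the phosphate transporter gene PHO89 had the largest change (-1.74 ± 0.43, adjusted p = 0.00715; 0.102 without the second MMS library). In that list 5 genes rose without G1 library 1, 1 without G1 library 2 and 0 without the first MMS library, and 1 fell without the second. Meiosis genes were low throughout: 6 of 16 tested rose and 2 fell, 2 rose and 1 fell without G1 library 4 or without the first MMS library, 1 fell without G1 library 3, and the master regulator IME1 was at 13.9, 3.41, 5.69 and 4.57 and then at 23.9 and 22.7 (1.79 ± 0.41, adjusted p = 0.00364).

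Noncoding transcripts had lower median changes than coding genes. Cryptic unstable transcripts (CUTs), stable unannotated transcripts (SUTs) and Xrn1-sensitive transcripts (XUTs) are classes of mostly noncoding RNA polymerase II transcripts, told apart by how they are degraded, and their rows overlap each other. Of 1424 tested XUT rows 123 rose and 348 fell (8.64% and 24.4%), of 734 SUT rows 65 and 181 (8.86% and 24.7%), and of 760 CUT rows 46 and 129 (6.05% and 17%). The shares that fell were thus near or below the 23.5% of coding genes that fell, and the shares that rose were below the 23.5% of coding genes that rose. Their median log2 changes were -0.23, -0.20 and -0.25 against 0.00 for coding genes. Leaving out the first MMS library gave 121 higher and 378 lower rows over the 3 classes, against 234 (8.02%) and 658 (22.5%) with all libraries. Against the MRX deletions 48 XUT rows were higher and 433 lower (3.37% and 30.4%), where 19.5% of coding genes were higher and 19.9% lower. Rows of small RNAs were also lower: 26 of 77 snoRNA rows fell and 1 rose (33.8% and 1.3%), and 28 of 85 tRNA rows fell (32.9%). What part RNA length or its recovery plays here was not tested. These are changes relative to coding genes, whose median was 0.00.

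**Figure D5:**
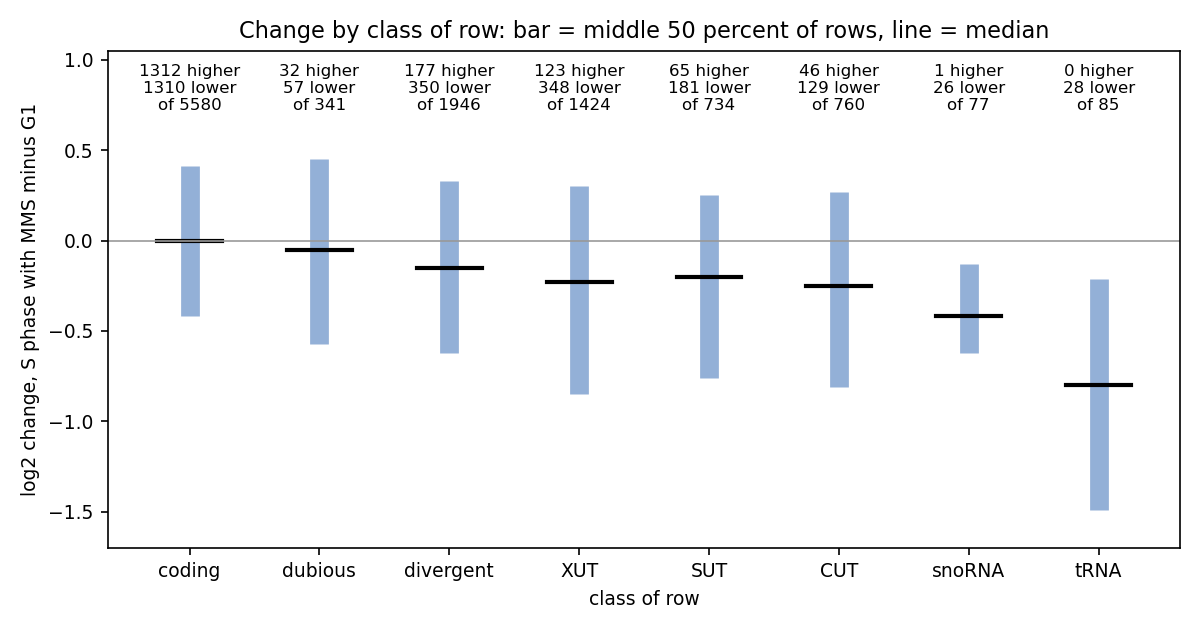
Log2 change by class of row, S phase with MMS minus G1: the bar spans the middle 50 percent of rows, the line is the median, and the counts of rows that rose and fell are printed above. Coding rows are centred at 0.00 with 1312 higher and 1310 lower; XUT, SUT and CUT rows have medians of -0.23, -0.20 and -0.25.

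Some noncoding rows with small p values lay opposite coding genes that changed the other way. The pairs given here were picked with their values known. XUT1114 (chromosome 4, 1451092 to 1452864, minus strand, build R64) and SUT494 (1451121 to 1452833) are overlapping annotations that run antisense across most of PLM2 (1451353 to 1452918, plus strand). XUT1114 stood at 247, 191, 175 and 198 in G1 and at 32.6 and 29.8 in MMS, a change of -2.65 ± 0.15 (adjusted p = 5.49e-08), while PLM2 rose by 4.38. In G1 the antisense row held more reads than the sense gene in every library, and in MMS the order was the reverse in both. GIC1, an effector of the polarity GTPase Cdc42, was at 64.1, 20.5, 21.1 and 26.5 and then at 195 and 203 (2.72 ± 0.53, adjusted p = 0.00145) with the antisense XUT0439 at 383, 614, 618 and 611 and then at 71.6 and 39.7 (-3.33 ± 0.40, adjusted p = 5.17e-05). The opposite direction was seen at PRM1, a pheromone gene of cell fusion. PRM1 fell from 5522, 20259, 15958 and 20394 to 645 and 1105 and its antisense SUT743 rose from 23.7, 8.53, 22.0 and 24.7 to 137 and 137 (-4.03 ± 0.74 and 2.84 ± 0.34, adjusted p = 0.00125 and 3.05e-05).

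Across the genome, 721 tested coding genes had a tested CUT, SUT or XUT row on the other strand over at least 50 percent of the ORF, and the row with the smallest p was taken for each. Among the 165 of these genes that rose, the antisense row fell in 52 (31.5%) and rose in 8 (4.85%). Among the 169 that fell, it fell in 40 (23.7%) and rose in 28 (16.6%), and among the 387 not called it fell in 73 (18.9%) and rose in 45 (11.6%). These pairs were counted after their values were seen and carry no test. Reads on the wrong strand were rare: in 26 dubious ORFs placed wholly within an opposite-strand coding gene, the wild-type G1 value per base was a median of 0.217% of that of the gene.

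Changes of coding genes also varied with length and level. With coding genes split into 5 equal bins, from the shortest to the longest the median log2 change was -0.17, -0.07, 0.07, 0.05 and 0.13, and from the lowest to the highest bin by wild-type G1 level per kilobase it was 0.25, 0.15, 0.01, -0.12 and -0.33. In the highest bin 534 of 1116 genes fell and 172 rose. The G1 values enter both the level and the change. Chromosomes differed little, with medians of -0.06 to 0.09 apart from chromosome 6 (0.19 over 117 genes).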

How the data were processed

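Total RNA from rRNA-depleted, strand-specific libraries was measured in 17 libraries of 8 groups. Per the submitters' processing notes, STAR 2.5.3, SAMtools 0.1.19, DESeq2 and the build R64 were used. How rows were counted is not given in the sources used here. The deposited values, used here as a signal per row, are read counts divided by 1 size factor per library, and within a tolerance of 0.02 they were whole multiples of what 1 read is worth. Rows whose mean across the 17 libraries reached 10 were tested with limma 3.58.1 (R 4.3.3) on log2(value + 1), with all 8 groups in 1 fit (9 residual degrees of freedom), intensity trend and robust moderation, and Benjamini-Hochberg adjustment over all rows. edgeR 4.0.16 and DESeq2 1.42.0 on the recovered reads, other scalings, pseudocounts, filters, reference groups and left-out libraries were alternatives. The limma fit was also run on simulated counts in which a small set of coding genes changed. All simulated libraries had the same added spread and none stood apart, so the simulation cannot show how the fit handles such a library.

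Members and lists were chosen with earlier results of these data known. Genes were named by rule: the 15 largest rises and 15 largest falls among called genes whose groups lay apart, up to 2 genes a direction of each list and up to 3 rows of each RNA class by smallest adjusted p, and all reductase and damage-inducible genes. Further members were named with their values known. Open reading frame rows and transcript rows overlap, so only the former are counted as coding genes.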

Additional observations from a re-analysis of the deposited data

Results flagged for a closer look

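Among the 4 wild-type G1 libraries, 29 of the 162 named rows and 3 of 29 list means had 1 library farther from the rest than Dixon's 95% limit for 4 samples allows, the gap being given as a ratio to the range of the group. Chance alone marks about 1 in 20 groups. The library that stood apart was G1 library 1 in 26 of the 32 cases.

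For genes of the G1/S programme and its cyclins the gap ratio of library 1 was 0.992 for PCL1, 0.989 for RNR1, 0.984 for TOS4, 0.98 for CLB6, 0.979 for CDC6, 0.962 for CLN2 and MCD1, 0.943 for CDC21, 0.916 for RFA2, 0.88 for PLM2 and 0.85 for RFA1. The mean over the G1/S list had a ratio of 0.91, that over the homologous recombination list 0.952 and that over the pre-replicative complex list 0.857. Among other genes library 1 gave 0.952 for RAD53, 0.932 for MAG1, 0.928 for SSA2, 0.927 for MCM7, 0.921 for NSR1, 0.89 for YHP1 and ILV3, 0.878 for SSB1, 0.862 for GIC1, 0.848 for DDR48 and 0.838 for ATR2. The antisense row XUT0439 had 0.972.

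G1 library 2 stood apart for CTS1 (0.864) and the antisense row SUT743 (0.832). G1 library 3 did so for RAD52 (0.8292) and for MF(ALPHA)1, where it held the only reads (a ratio of 1), and G1 library 4 for DDI3 (0.885) and SGS1 (0.838). Of the 18 called rows in which library 1 stood apart, 18 kept their call and direction without it. Of the 5 such rows not called, 2 were called without it.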

How the results depend on the processing

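The limits of the comparison are 2 MMS libraries against 4 G1 libraries, 1 G1 library that stands apart, stage and MMS changed together, and counts of near-identical or overlapping rows whose reads counting cannot tell apart. Genes with a few reads in G1 are limited by depth, and their fitted changes depend on the value added before taking logs.

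With 1 choice changed at a time, the counts of coding genes higher and lower in MMS than in G1 moved from 1312 and 1310 to 1287 and 1304 with edgeR, 1348 and 1384 with DESeq2 (both without the ku70Δ library, whose whole reads were not recovered), 1458 and 1409 against the average of all 7 G1 groups, and 981 and 940 with the groups compared alone. Of the edgeR calls 1280 and 1286 were shared with limma. With the groups compared alone, limma lost the calls of XRS2, NEJ1, RPN13, MCM4 and HAP4, among others (adjusted p = 0.0574 to 0.104 for those named). Single libraries left out gave 811 to 1423 higher and 814 to 1404 lower genes, and 714 to 1152 higher and 711 to 1097 lower than in the MRX deletions. For CUT, SUT and XUT rows the ranges were 121 to 284 higher and 378 to 687 lower. The lowest counts came without the first MMS library. With a log2 change of at least 1 required, 412 genes were higher and 447 lower than in G1, 192 were higher and 468 lower than in the MRX deletions, and 152 CUT, SUT and XUT rows were higher. These noncoding rows gave 141 higher and 1232 lower against the 7 G1 groups, a reference that includes strains lacking RNA decay factors, 125 and 366 with a mean of at least 50 (fewer rows tested), and 141 and 397 with the groups compared alone. TMM over all rows (1413 and 1218) and wild-type G1 libraries 1 and 2 (1153 and 1195) or 3 and 4 (1448 and 1453) alone were tried after seeing the data.

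Some single genes changed sign. Against the average of the 7 G1 groups the log2 change was -0.14 for SRG1, 0.02 for PFK1, 0.01 for ILV3, 0.04 for RDN5-1 and 0.00 for PFK2, all called the other way against wild-type G1. There it was also -1.38 for HSP26, -2.77 for EGT2, -2.38 for DSE4 and 0.96 for OLI1, which were not called against wild-type G1. The calls of TSL1 (0.40, adjusted p = 0.261), HEM1 (-0.29, 0.0800), SSB1 (-0.07, 0.644) and IME1 (0.63, 0.161) were lost there. FTR1 was at -0.86 with the replicate block (adjusted p = 0.0403) and not called without it. The cause was not tested.

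The G1 and MMS libraries share replicate numbers 1 and 2 only, and the deviations of same-numbered libraries correlated at -0.0924 and -0.308. With 2 MMS libraries the deviations of 1 mirror those of the other. These values therefore cannot show whether same-numbered libraries were handled together. With the replicate number as a block, 1179 coding genes were higher and 1223 lower than in G1, of which 1064 and 1104 were shared with the fit without it, and 1239 and 1236 differed from the MRX deletions.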

Other observations

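The gene groups below were put together after the values had been seen, so their counts describe them and carry no test. Beyond CYC1 and CYB5, genes of the nuclear-encoded respiratory chain, cytochromes and their regulators were mostly lower in S phase with MMS than in G1: 26 of 32 fell and 1 rose, with a median log2 change of -1.73. NDE1, the external NADH dehydrogenase of mitochondria, stood at 11212, 8696, 19122 and 15758 normalised reads in G1 and at 916 and 1063 in MMS (-3.73 ± 0.23, SE; limma, adjusted p = 1.06e-07). CYT1, cytochrome c1, was at 1912, 1678, 3300.1 and 2887 and then at 269 and 268 (-3.13 ± 0.24, adjusted p = 8.18e-07), and RIP1, the iron-sulfur subunit of the same complex, at 2104, 1903, 3389 and 2934 and then at 365 and 363 (-2.78 ± 0.18, adjusted p = 1.60e-07). For these 3 genes every G1 value was above both MMS values, and G1 libraries 3 and 4 were higher than libraries 1 and 2. HAP4, the regulatory subunit of the HAP activator of respiration genes, fell by 1.51 (adjusted p = 0.00564; 0.0643 without the first MMS library), and HAP1, a haem-responsive activator, rose by 0.39 ± 0.12 (adjusted p = 0.0238), a call lost without G1 library 3 or 4 or the first MMS library (adjusted p = 0.0503 to 0.250). Haem synthesis itself did not move one way: of 8 genes 3 rose and 2 fell, with a median of -0.03. HEM1, the first enzyme, fell by 0.84 (adjusted p = 6.56e-04) and HEM15, which inserts the iron, rose by 0.70 ± 0.10 (adjusted p = 1.13e-04).

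Genes that feed substrates to the proteasome were higher. All 13 genes of ubiquitin, its conjugation and the Cdc48 segregase that were tested rose, by 0.49 to 2.09, with a median of 0.92. NPL4, a cofactor of Cdc48, was at 1338, 1872, 1129.6 and 1466 in G1 and at 5829 and 4551 in MMS (1.85 ± 0.16, adjusted p = 2.68e-06), and CDC48 itself rose by 0.68 ± 0.13 (adjusted p = 0.00117). UBI4, the stress-inducible polyubiquitin gene, was at 6912, 12221, 9190.4 and 9909.9 and then at 25964 and 20225 (1.29 ± 0.20, adjusted p = 2.60e-04). No MMS value of these 3 genes overlapped the G1 range.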
